A study of Caenorhabditis elegans with 6 samples.

Results

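The genes described here are the histone genes of Caenorhabditis elegans, taken as every row with counts whose gene name is his, hil, htz or htas followed by a number. This rule found 82 of the 22416 genes with counts in the deposited table, and 34 of the 82 had enough reads to be tested. Whole-animal RNA was sequenced after polyA selection from 6 pools of worms of the transgenic strain CL2006, in which the muscle promoter unc-54p drives the human amyloid-β peptide. In 3 pools the worms were fed nol-56 RNAi bacteria from the last larval stage, against nol-56, the gene of a core protein of box C/D small nucleolar ribonucleoproteins. In the 3 EV control pools the worms stayed on the bacteria labelled EV, and the labels also call these worms untreated. Both groups carried the transgene, were kept at 20 °C, were moved daily to remove progeny and were collected on day 6 of adulthood. No group without the transgene was analysed here. The study asks how a nucleolar protein bears on protein homeostasis, and the comparison asks how its loss alters gene expression.

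Histones package DNA. The nucleosome core is built from H2A, H2B, H3 and H4, and linker H1 histones bind the DNA between cores. In animals the genes for the bulk core histones lack introns, are copied in S phase, and give messenger RNAs that end in a stem-loop in place of a polyA tail. Replacement variants such as H3.3 and H2A.Z are made outside S phase as well, usually from genes with introns whose messages are polyadenylated. In an adult worm the germ line is the tissue in which cells still divide, and oocytes store histones for the embryo. A polyA-selected library therefore does not measure the total RNA of a gene whose message carries no tail.

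Total gene counts were 21138955 to 23901618 in the nol-56 RNAi libraries and 24109520 to 34841215 in the EV control libraries. The targeted gene followed the labels: nol-56 had 518, 442 and 339 reads in nol-56 RNAi libraries 1 to 3, against 5878, 9029 and 8288 reads in EV control libraries 1 to 3. Of 14677 genes tested, 12917 passed an adjusted p of 0.05 (two-sided quasi-likelihood test of edgeR, p-values adjusted by Benjamini and Hochberg), which is 88%, with 47.2% higher and 40.8% lower on nol-56 RNAi. Over all genes the median log2 fold change was 0.16; RLE factors moved it by −0.14 and upper-quartile factors by 0.25. Markers of tissues moved with the groups: all 27 germline and oocyte markers were lower (median log2 fold change −1.08; summed level 7650 to 7865 CPM in nol-56 RNAi and 17840 to 19370 CPM in EV control), and all 14 neuron, 12 body wall muscle and 12 intestine markers were higher. CPM is the read count scaled to a fixed library total. The neuron markers summed to 1145 to 1180 CPM in nol-56 RNAi and 575.7 to 600.2 CPM in EV control, the muscle markers to 6571 to 6628 CPM in nol-56 RNAi and 3218 to 3340 CPM in EV control, and the intestine markers to 5077 to 5153 CPM in nol-56 RNAi and 2905 to 3107 CPM in EV control. No marker of these 4 lists was at 0. Of 20 sperm markers, 1 was at 0 and 10 were tested (4 higher, 5 lower; 12.4 to 14.2 CPM in nol-56 RNAi and 11.9 to 15.02 CPM in EV control). Of 17 early embryo markers, 10 were tested (2 higher, 8 lower), and their sum was 386 to 390 CPM in nol-56 RNAi and 282 to 292 CPM in EV control. That sum turned on sdz-27, named after its value was seen, with 264 ± 2.82 CPM in nol-56 RNAi and 59.8 ± 1.05 CPM in EV control; the other 16 summed to 120.2 to 125 CPM in nol-56 RNAi and 222 to 232 CPM in EV control. In such pools fewer germ cells and less RNA per germ cell cannot be told apart, and the part of tissue make-up in the histone results was not tested.

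In these polyA-selected libraries, the histone transcripts in sum were less abundant on nol-56 RNAi. Summed over the 82 genes they held 1147, 1140 and 1094 CPM in nol-56 RNAi libraries 1 to 3, against 2383, 2374 and 2357 CPM in EV control libraries 1 to 3. The mean was 1127 ± 28.7 CPM in nol-56 RNAi and 2371 ± 12.9 CPM in EV control (SD, n = 3 libraries each), a ratio of 0.475, and the groups were far apart relative to their spread. As a share of all counts this was 0.116 ± 0.0038% in nol-56 RNAi and 0.229 ± 0.0018% in EV control. Genes with introns gave 96.4% of the sum in nol-56 RNAi and 97.1% in EV control. The sum does not measure histone messages without a polyA tail. The make-up of the histone reads differed between the groups as well. Linker H1 genes gave 30.4 ± 0.419% of histone CPM in nol-56 RNAi and 50.3 ± 0.530% in EV control. H2A.Z gave 25.8 ± 0.550% in nol-56 RNAi and 22.6 ± 0.729% in EV control, and the H3.3 genes 28.9 ± 0.534% in nol-56 RNAi and 20.1 ± 0.396% in EV control. Core histone genes with introns gave 11.4 ± 0.324% in nol-56 RNAi and 4.16 ± 0.0823% in EV control. No test is given for sums over the members, since they were chosen with earlier results of these data known.

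**Figure D1:**
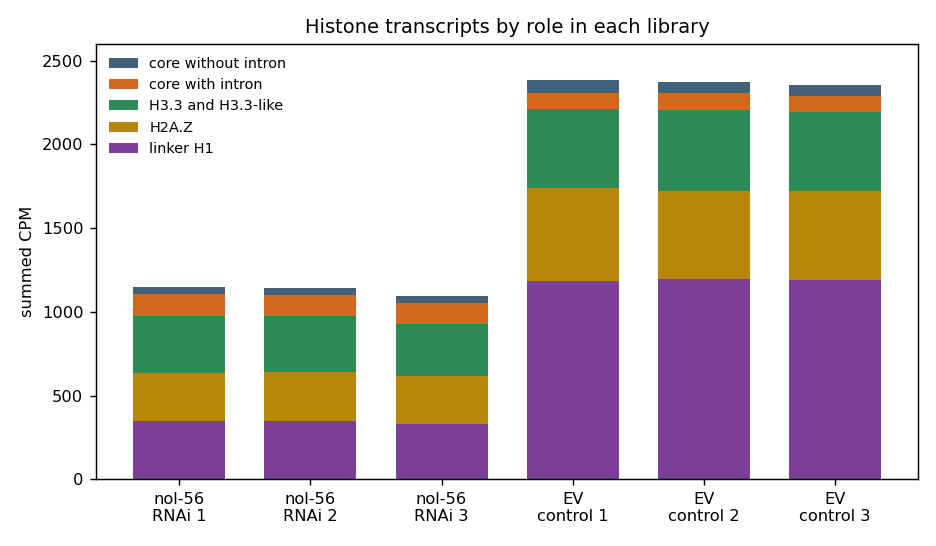
Summed CPM of the histone genes in each of the 6 libraries, stacked by role; the sperm H2A gene and 2 unclassed genes are too low to show. The nol-56 RNAi bars stand at 1094 to 1147 CPM and the EV control bars at 2357 to 2383 CPM, with the linker H1 section showing the largest drop.

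Gene structure and read number went together. In the Ensembl annotation of WBcel235, 64 of the 82 genes have neither an intron nor an annotated 3′ untranslated region, which holds for 3.43% of the 19984 protein-coding genes with counts. The other 18 have both. These 18 genes gave 96.4 ± 0.278% of histone CPM in nol-56 RNAi and 97.1 ± 0.212% in EV control. Per kilobase of exon, the genes with introns had a median mean level of 55.1 CPM in nol-56 RNAi and 85.1 CPM in EV control, and the genes without introns 0.140 CPM in nol-56 RNAi and 0.166 CPM in EV control. All 27 genes at 0 in every library lack introns. A count of 0 in a single library allows up to 3 reads, or 0.0898 to 0.139 CPM depending on the library. For a gene at 0 in all 6 libraries the limit is 0.0189 CPM. These limits cover counting error only. Between 50 and 53 of the 82 genes had at least 1 read in a given library, with no split by group.

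**Figure D2:**
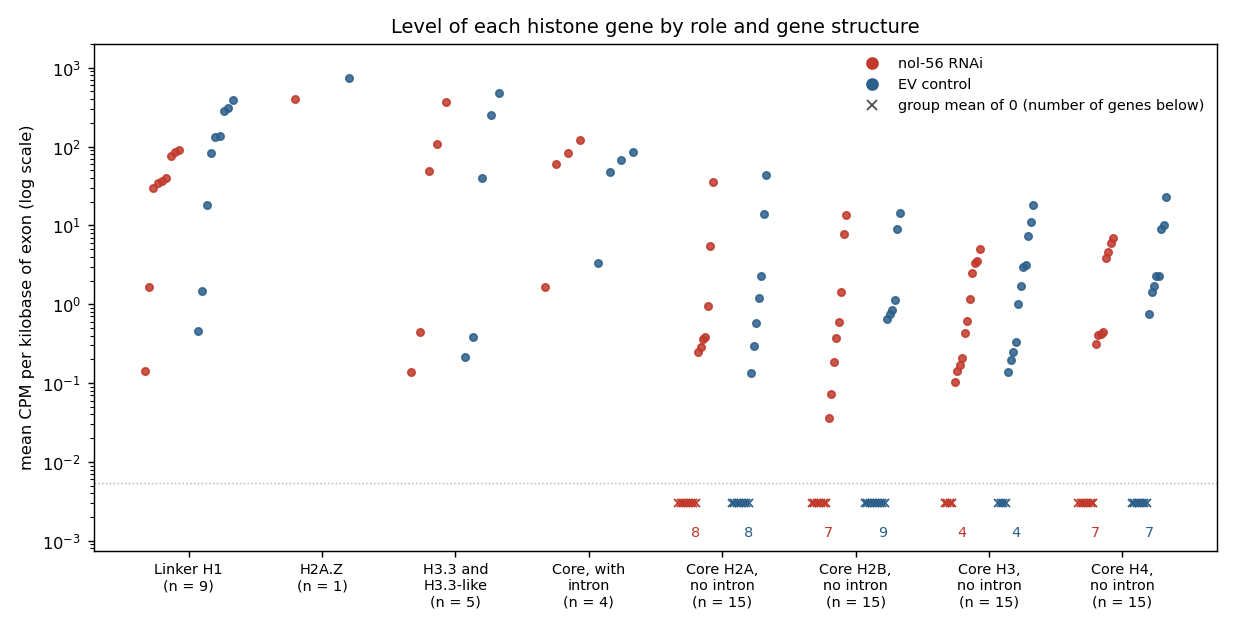
Mean CPM per kilobase of exon (log scale) for each histone gene in nol-56 RNAi (left of each pair) and EV control (right), grouped by role and structure; crosses below the dotted line are genes whose group mean is 0, with their number. Most genes with introns lie above 10 and most core genes without introns below it; the sperm H2A gene htas-1 and the 2 unclassed genes are not drawn.

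Of the 60 core histone genes without introns, 15 encode each of H2A, H2B, H3 and H4, and 26 had no read in any library, 8 for H2A, 7 for H2B, 4 for H3 and 7 for H4. As background, core histone genes of one type are known to be closely alike in sequence; their likeness was not measured here, and the sources used here do not give how reads with several matches were treated. Counts of single genes of this kind are therefore uncertain. The part of missing polyA tails and of shared sequence in the low counts was not tested. On chromosome V, all 6 genes between 8847393 and 8854053 (his-49 to his-54) had 0 reads in every library. On chromosome II, 13 genes lie between 13817760 and 13828697, 9 of them at 0, and the run had 58 reads over the 6 libraries in all. By contrast, the 4 genes of the chromosome IV run from 7485834 to 7488659 (his-59 to his-62) each passed the filter and held 3008 reads together.

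Among the 34 genes tested, 23 fell (beside 40.8% of all genes tested), 7 rose (beside 47.2%) and 4 did not pass the threshold (edgeR quasi-likelihood test, adjusted p over all genes tested). Of the 34, however, 6 passed the filter on low counts through 1 group alone, so that a difference was built into their selection: hil-8, his-2, his-3, his-6 and his-31 through the EV control libraries and his-20 through the nol-56 RNAi libraries. The other 28 lay above the filter's level of 0.417 CPM in all 6 libraries, a subset formed after the data were seen. Among these 28, 18 fell (beside 42.7% of the 13057 genes above that level in all 6 libraries), 6 rose (beside 46.4%) and 4 did not pass the threshold. Their median log2 fold change was −0.97, beside 0.08 for those 13057 genes. A fall of at least 2-fold with an adjusted p under 0.05 was seen in 13 of the 28, a rate of 46.4% beside 11%. With the 6 genes included it was 18 of 34, beside 12.4% of all genes tested, and the median was −1.14, beside 0.16. The groups did not overlap in 31 of the 34, beside 88% of all genes tested, which is near the background.

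**Figure D3:**
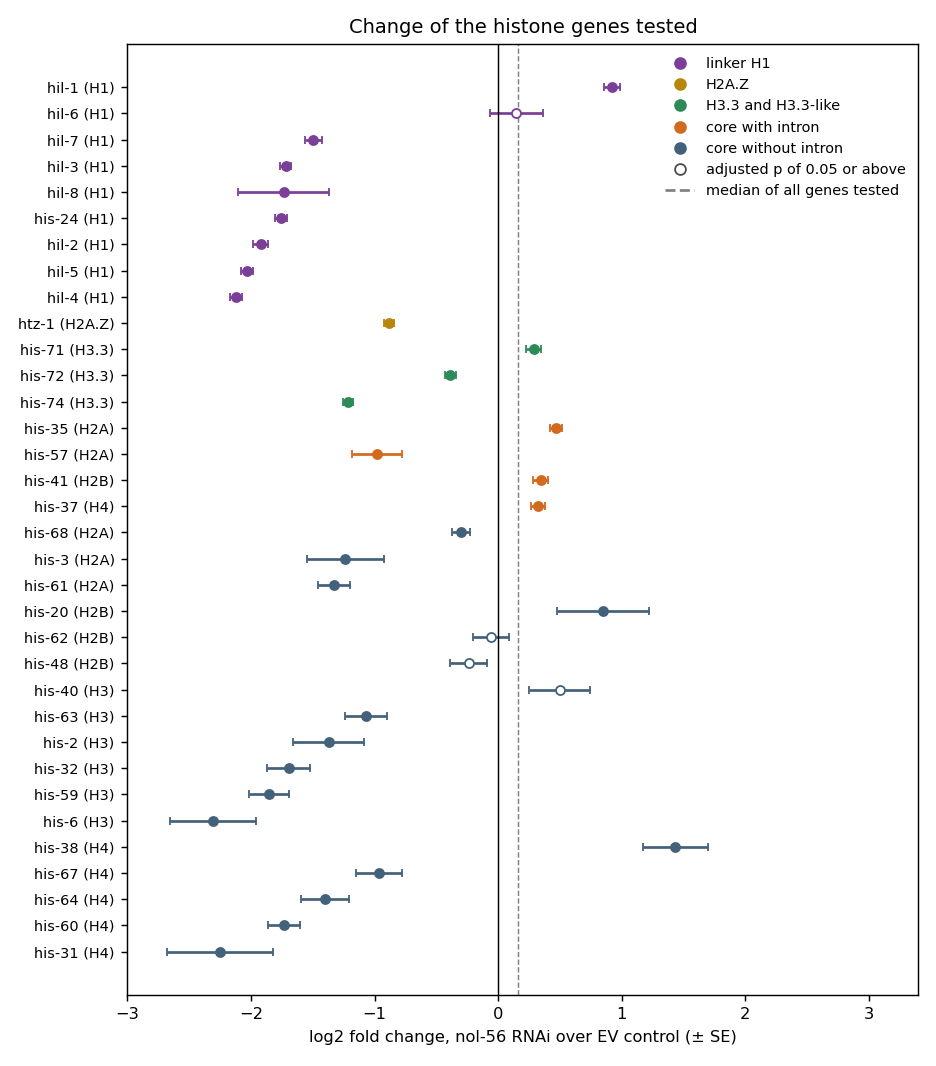
Log2 fold change of nol-56 RNAi over EV control with its standard error for the 34 histone genes tested, by role and histone type; open points did not pass an adjusted p of 0.05 and the dashed line is the median of all genes tested, 0.16. Linker genes other than hil-1 and hil-6 lie between −2.12 and −1.50, and his-35, his-41 and his-37 lie together between 0.32 and 0.47.

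Linker H1 had the lowest ratio of summed levels among the 5 roles that hold nearly all histone reads, leaving out the sperm H2A gene and the 2 unclassed genes with 17 reads in all. The 9 genes together held 346, 352 and 329 CPM in nol-56 RNAi libraries 1 to 3, against 1183, 1199 and 1193 CPM in EV control libraries 1 to 3, a 3.48-fold difference. Of the 9, 7 fell (beside 40.8% of all genes tested), 1 rose (beside 47.2%) and 1 did not pass the threshold. Without hil-8, which passed the filter through the EV control libraries alone, 6 of 8 fell (median log2 fold change −1.74). Of the 13057 genes above the filter's level in all 6 libraries, 42.7% fell, with a median of 0.08. The most abundant, hil-4 (histone H1.4; chromosome V, 4754313 to 4755453), had 88.0, 88.7 and 82.7 CPM in nol-56 RNAi, against 394, 374 and 361 CPM in EV control, so that every nol-56 RNAi library was below every EV control library by a wide margin. It fell by 2.12 on the log2 scale (SE 0.05, adjusted p = 6.57e-20, edgeR). hil-5 (H1.5) had 67.0, 69.3 and 61.8 CPM in nol-56 RNAi, against 278, 275 and 256 CPM in EV control (log2 fold change −2.03).

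The linker histone his-24 (chromosome X, 14490094 to 14491119) had 78.8, 78.2 and 75.9 CPM in nol-56 RNAi, against 243, 262 and 281 CPM in EV control (log2 fold change −1.75, SE 0.05). hil-2 (H1.2) averaged 27.4 ± 2.77 CPM in nol-56 RNAi and 103.7 ± 4.84 CPM in EV control. hil-3 (H1.3) averaged 34.4 ± 0.522 CPM in nol-56 RNAi and 113 ± 4.11 CPM in EV control. These 3 genes were 3.29 to 3.79-fold lower in nol-56 RNAi. hil-7 (H1.Q) fell by less, to 17.1 ± 1.03 CPM in nol-56 RNAi, against 48.0 ± 3.97 CPM in EV control (log2 fold change −1.50). hil-8, described as a protein with an H15 domain, had 2, 8 and 7 reads in nol-56 RNAi, against 17, 28 and 26 reads in EV control (log2 fold change −1.73, SE 0.37). Its difference was built into its selection, since it passed the filter through the EV control libraries alone.

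One linker gene went the other way. hil-1 (H1.X; chromosome V, 14949777 to 14952799) had 33.8, 31.3 and 29.6 CPM in nol-56 RNAi, against 16.1, 16.4 and 17.4 CPM in EV control, and all nol-56 RNAi libraries were above all EV control libraries. It rose 1.89-fold (log2 fold change 0.92, SE 0.06, adjusted p = 7.29e-12, edgeR). hil-6 (H1.6) stayed low in both groups, with 39, 29 and 27 reads in nol-56 RNAi and 25, 40 and 41 reads in EV control, and its groups overlapped (log2 fold change 0.15, adjusted p = 0.512). Of all linker reads, hil-1 held 9.22 ± 0.465% in nol-56 RNAi and 1.397 ± 0.0562% in EV control (SD, n = 3 libraries each), a share that does not depend on the scaling between libraries. The ratio of hil-1 to his-24 reads was 0.406 in nol-56 RNAi and 0.0637 in EV control on average (exact permutation test, two-sided, p = 0.1, adjusted p = 0.183 over the 11 read ratios computed here). With 3 libraries against 3, 0.1 is the smallest p that this test can give. The pair was picked with earlier results of these data known. Since hil-1 rose and his-24 fell, each with no overlap, their ratio had to differ, and its test adds no support.

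**Figure D4:**
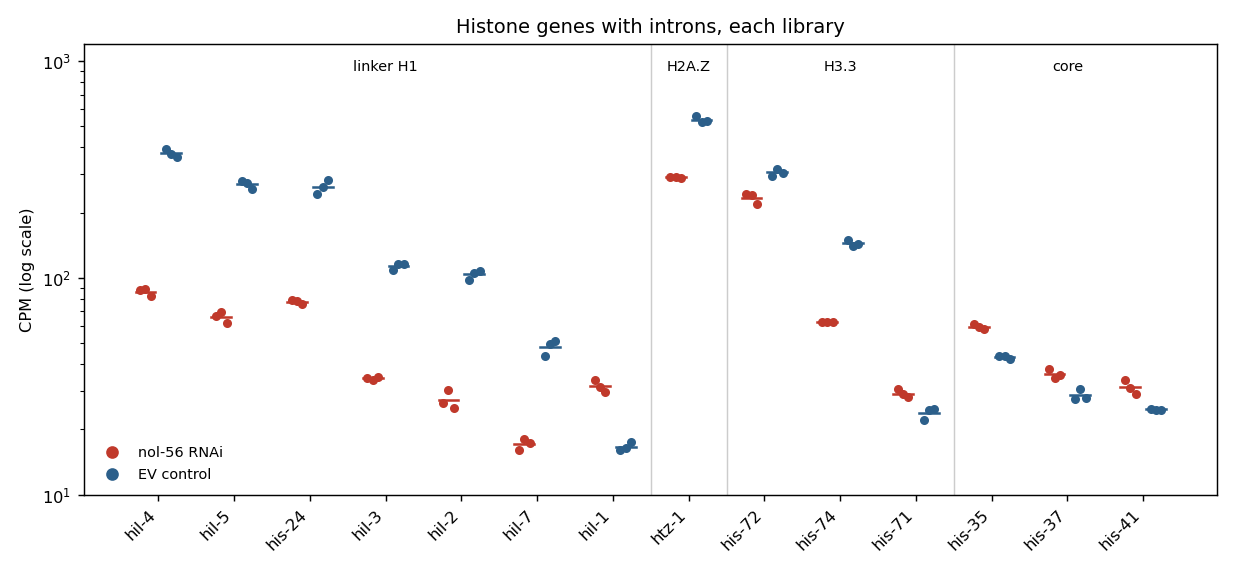
CPM (log scale) of 14 histone genes with introns in each library, nol-56 RNAi left and EV control right for each gene, with the group mean as a bar; the low genes hil-6, hil-8, his-57 and htas-1 are left out. The groups do not overlap in any of the 14, beside 88% of all genes tested. Of the 14, hil-1, his-71, his-35, his-37 and his-41 are higher in nol-56 RNAi.

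The single H2A.Z gene was the most abundant histone gene per kilobase of exon in both groups. htz-1 (chromosome IV, 4446216 to 4446999) encodes the H2A variant that in many eukaryotes marks nucleosomes near transcription starts. It had 291, 293 and 289.5 CPM in nol-56 RNAi, against 558, 524 and 527 CPM in EV control, with a tight nol-56 RNAi group (SD 1.63 CPM) and no overlap. It fell by 0.88 on the log2 scale (SE 0.04, adjusted p = 7.18e-15, edgeR). This is a smaller change than that of the linker genes that fell, whose log2 fold changes were −1.50 or lower.

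The H3.3 genes changed by different amounts and in both directions. H3.3 replaces H3 in chromatin outside S phase. his-72 (H3.3 type 2; chromosome III, 12367475 to 12369050), the most abundant of them, had 243, 241 and 219 CPM in nol-56 RNAi, against 296, 319 and 306 CPM in EV control, and fell slightly (log2 fold change −0.39, SE 0.05, adjusted p = 5.64e-08, edgeR). his-74 (H3.3-like type 2; chromosome V, 12659704 to 12660330) had 62.2, 62.3 and 62.6 CPM in nol-56 RNAi, against 150, 141 and 143 CPM in EV control, and fell 2.32-fold (log2 fold change −1.21, SE 0.04). The gap between its groups was many times the spread within them.

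his-71 (H3.3 type 1; chromosome X, 7981382 to 7982070) had 30.6, 29.0 and 28.2 CPM in nol-56 RNAi, against 22.1, 24.6 and 24.9 CPM in EV control, a small rise with no overlap (log2 fold change 0.29, SE 0.06, adjusted p = 0.000145, edgeR). With DESeq2 it did not pass the threshold (adjusted p = 0.0604, log2 fold change 0.15). Over all alternatives its adjusted p lay between 1.33e-07 and 0.0604. The balance between the H3.3 genes, which no scaling affects, differed between the groups with no overlap. Such a gap is common here: read ratios did not overlap in 71.1% of the 1429 divergent protein-coding pairs tested. Since his-71 rose and his-72 fell, each with no overlap, their ratio had to differ. These pairs were picked with earlier results of these data known. There were 0.126, 0.120 and 0.129 his-71 reads per his-72 read in nol-56 RNAi, against 0.0750, 0.0772 and 0.0814 in EV control. There were 0.256, 0.259 and 0.286 his-74 reads per his-72 read in nol-56 RNAi, against 0.507, 0.442 and 0.468 in EV control (exact permutation p = 0.1 for each ratio, adjusted p = 0.183). The intronless H3.3-like genes his-69 and his-70 had 25 and 12 reads over all libraries and were not tested.

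A run of 3 core histone genes with introns was higher on nol-56 RNAi. his-35 (H2A), his-41 (H2B) and his-37 (H4) lie within 2.95 kb on chromosome V, from 9544659 to 9547607, and each has a 3′ untranslated region in the annotation. his-35 had 61.1, 59.1 and 58.3 CPM in nol-56 RNAi, against 43.4, 43.5 and 42.1 CPM in EV control, and rose 1.38-fold (log2 fold change 0.47, SE 0.05, adjusted p = 3.56e-09, edgeR). his-41 had 33.6, 31.2 and 29.2 CPM in nol-56 RNAi, against 24.9, 24.7 and 24.6 CPM in EV control (log2 fold change 0.34). his-37 had 945, 845 and 771 reads in nol-56 RNAi, against 638, 1031 and 872 reads in EV control; in CPM it averaged 36.0 ± 1.85 in nol-56 RNAi and 28.7 ± 1.83 in EV control (log2 fold change 0.32). All nol-56 RNAi libraries were above all EV control libraries for each of the 3 genes in CPM. Groups did not overlap in 88% of all genes tested, which is near this. Of all genes tested 47.2% were called higher, and the median log2 fold change was 0.16.

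With the variants H2A.Z and H3.3 left out, most core histone reads in these polyA-selected libraries came from these genes. The 4 core genes with introns had 127.9 ± 5.31 CPM in nol-56 RNAi and 98.7 ± 2.23 CPM in EV control, whereas the 60 without introns had 39.9 ± 2.15 CPM in nol-56 RNAi and 68.8 ± 5.29 CPM in EV control. The ratio of his-37 to his-41 reads was 1.15 in nol-56 RNAi and 1.16 in EV control and overlapped between groups (exact permutation p = 0.7, adjusted p = 0.7). Other annotated genes overlap his-41 (C50F4.6, same strand) and his-37 (nstp-10, opposite strand). Both, named after their values were seen, moved the other way: C50F4.6 averaged 5.25 ± 0.377 CPM in nol-56 RNAi and 25.4 ± 0.922 CPM in EV control, and nstp-10 averaged 53.2 ± 2.80 CPM in nol-56 RNAi and 67.3 ± 4.07 CPM in EV control. his-35 overlaps no other annotated gene. Of the 82 histone genes, 12 overlap another annotated gene. Among them are his-72 (small nucleolar RNA gene Y49E10.36, same strand), hil-2 (mir-8201, same strand) and his-24 (noncoding RNA genes, opposite strand). The part of such overlaps in the counts was not tested.

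The fourth core gene with introns, the H2A gene his-57 on chromosome IV, was low, with 30, 29 and 21 reads in nol-56 RNAi against 64, 69 and 61 reads in EV control (log2 fold change −0.98, SE 0.20, adjusted p = 0.000124, edgeR). It overlaps klp-12 on the opposite strand, named after its values were seen, which averaged 174 ± 1.99 CPM in nol-56 RNAi and 207 ± 8.66 CPM in EV control. Whether reads were counted by strand is not stated in the sources.

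Core histone genes without introns were mostly lower, and the types differed in their counts; differences between types were not tested. Of 17 tested, 12 fell (beside 40.8% of all genes tested), 2 rose (beside 47.2%) and 3 did not pass the threshold. However, his-2, his-3, his-6 and his-31 among those that fell, and his-20 among those that rose, passed the filter through 1 group alone. Of the 12 above the filter's level in all 6 libraries, 8 fell (beside 42.7% of all such genes), 1 rose (beside 46.4%) and 3 did not pass the threshold. The median log2 fold change of these 12 was −1.01, beside 0.08. Of these, 3 of 4 H3 genes, 3 of 4 H4 genes, both H2A genes and neither of the 2 H2B genes fell. Summed over all 15 genes of a type, H3 had 6.43, 7.24 and 7.44 CPM in nol-56 RNAi, against 20.99, 17.7 and 18.3 CPM in EV control, and H4 had 7.14 ± 1.35 CPM in nol-56 RNAi and 15.8 ± 1.20 CPM in EV control. H2A had 16.4, 15.8 and 18.0 CPM in nol-56 RNAi, against 24.4, 23.7 and 23.9 CPM in EV control, and most of it came from his-68. H2B had 9.05, 9.23 and 8.55 CPM in nol-56 RNAi, against 12.6, 9.49 and 8.07 CPM in EV control, so that its groups overlapped. All of these levels are small beside those of the genes with introns.

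The H3 gene his-59 had 48, 44 and 52 reads in nol-56 RNAi, against 211, 237 and 191 reads in EV control, and fell 3.61-fold (log2 fold change −1.85, SE 0.16, adjusted p = 3.66e-10, edgeR). Its neighbour, the H4 gene his-60, had 55, 50 and 48 reads in nol-56 RNAi, against 164, 225 and 240 reads in EV control (log2 fold change −1.73). In both genes the fewest reads in an EV control library were more than in any nol-56 RNAi library, although the EV control libraries were also sequenced more deeply. The H3 genes his-32 (log2 fold change −1.70) and his-63 (−1.07) and the H4 genes his-64 (−1.40) and his-67 (−0.96) fell too, with 0.813 to 1.76 CPM in nol-56 RNAi and 2.63 to 4.87 CPM in EV control. The genes his-6, his-2 and his-31 passed the filter through the EV control libraries alone, so that a difference was built into their selection. his-6 (H3) had 4, 10 and 4 reads in nol-56 RNAi, against 37, 32 and 42 reads in EV control (log2 fold change −2.31). his-2 (H3) had 9, 9 and 15 reads in nol-56 RNAi, against 34, 40 and 32 reads in EV control (−1.37). The H4 gene his-31 had the smallest counts of these, with 5, 2 and 3 reads in nol-56 RNAi against 23, 19 and 18 reads in EV control (log2 fold change −2.25).

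The H2A gene his-61 had 2.21, 2.15 and 1.99 CPM in nol-56 RNAi, against 5.21, 5.48 and 5.28 CPM in EV control (log2 fold change −1.33, SE 0.13). his-68, the intronless histone gene with the most reads, had 13.5, 12.7 and 15.1 CPM in nol-56 RNAi, against 16.9, 16.8 and 17.1 CPM in EV control (log2 fold change −0.30, adjusted p = 0.000635, edgeR), a small fall. That call was lost with upper-quartile factors (log2 fold change −0.06, adjusted p = 0.481) and with genes above 5 CPM alone (adjusted p = 0.0590). Its adjusted p lay between 7.86e-06 and 0.481 over the alternatives. his-3, with 7, 11 and 8 reads in nol-56 RNAi against 24, 24 and 28 in EV control, fell as well (log2 fold change −1.24, SE 0.31). However, his-3 passed the filter through the EV control libraries alone.

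The H2B genes his-62 and his-48 did not pass the threshold. his-62 had 127, 130 and 105 reads in nol-56 RNAi and 164, 167 and 130 reads in EV control, or 5.08 ± 0.218 CPM in nol-56 RNAi and 5.41 ± 1.497 CPM in EV control, with overlap between the groups (log2 fold change −0.06, SE 0.15, adjusted p = 0.711, edgeR). his-48 had 2.85, 2.76 and 2.96 CPM in nol-56 RNAi and 3.84, 3.50 and 2.85 CPM in EV control (log2 fold change −0.24, SE 0.15, adjusted p = 0.135). his-48 passed as lower with RLE factors (log2 fold change −0.37, adjusted p = 0.0223) and without EV control replicate 3 (adjusted p = 0.0280); its adjusted p lay between 0.0223 and 0.955 over the alternatives. The third, his-20, passed the filter through the nol-56 RNAi libraries alone. It was called higher on few reads, 10, 17 and 11 in nol-56 RNAi against 4, 13 and 9 in EV control (log2 fold change 0.85, SE 0.37, adjusted p = 0.0373, edgeR). This call was lost with RLE factors (adjusted p = 0.0773), with no filter (0.0548), with DESeq2 (0.194), and without nol-56 RNAi replicate 2 (0.197), nol-56 RNAi replicate 3 (0.0626), EV control replicate 1 (0.127) or EV control replicate 3 (0.0753). The alternatives gave it adjusted p-values of 0.00976 to 0.197.

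An X-linked pair gave the one intronless gene other than his-20 that rose. The H4 gene his-38 (chromosome X, 7309564 to 7309875) had 49, 33 and 48 reads in nol-56 RNAi, against 24, 17 and 18 reads in EV control, and rose 2.70-fold (log2 fold change 1.43, SE 0.27, adjusted p = 3.41e-05, edgeR). Its neighbour his-40 (H3; 7310110 to 7310520) had 24, 23 and 25 reads in nol-56 RNAi and 14, 26 and 23 reads in EV control (log2 fold change 0.50, adjusted p = 0.0623). his-40 passed as higher with upper-quartile factors (log2 fold change 0.74, adjusted p = 0.00797) and with library totals (adjusted p = 0.0289), with adjusted p-values of 0.00797 to 0.329 over the alternatives. Both genes had few reads in these libraries.

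Most core histone genes sit head to head with a partner of another type. The annotation holds 31 divergent histone pairs whose starts face each other with at most 2 kb between, 10 of them with both genes at 0 in every library and 7 with both genes tested. The ratio of reads between partners did not overlap between groups in 3 of the 7 pairs, beside 71.1% of all 1429 divergent protein-coding pairs tested. The difference was widest for his-61 and his-62, 327 bases apart, with 0.433, 0.408 and 0.410 H2A reads per H2B read in nol-56 RNAi, against 0.738, 1.10 and 1.27 in EV control (exact permutation p = 0.1, adjusted p = 0.183). The his-60 and his-59 pair of the same run, H4 and H3, kept ratios that overlapped between groups, 0.923 to 1.15 in nol-56 RNAi and 0.777 to 1.26 in EV control.

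**Figure D5:**
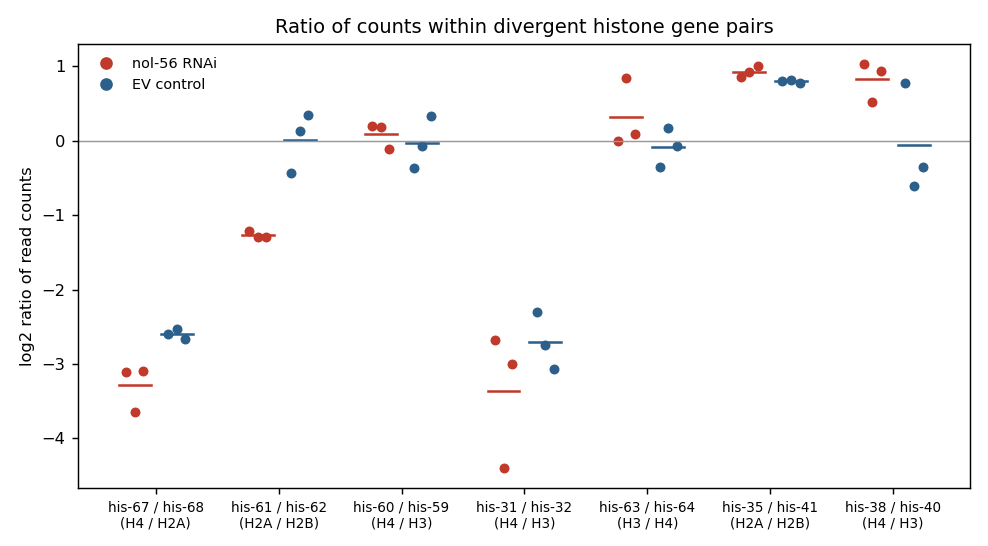
Log2 ratio of read counts between partners of the 7 divergent histone pairs tested, each library as a point and the group mean as a bar, nol-56 RNAi left and EV control right. The groups do not overlap for his-67 with his-68, his-61 with his-62 and his-35 with his-41, and they overlap for the other 4 pairs.

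The 48 genes that were not tested had 48, 56 and 40 reads in all in nol-56 RNAi libraries 1 to 3, against 125, 116 and 118 reads in EV control libraries 1 to 3. Scaled, this was 2.02 ± 0.227 CPM in nol-56 RNAi and 4.21 ± 1.03 CPM in EV control. The most counted of them were his-5 (53 reads over all libraries), his-7 (49), his-1 (48), his-4 (44) and, with 42 each, his-17 and his-66. his-17 (H3) had 1, 3 and 1 reads in nol-56 RNAi, against 9, 12 and 16 reads in EV control. The sperm H2A gene htas-1 had 1, 2 and 0 reads in nol-56 RNAi and 0, 6 and 7 reads in EV control. his-39 and his-73, described as histone domain proteins with no type, had 1 and 0 reads.

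Genes that handle histones and their messages were mostly lower. All 7 genes of the list on histone message processing and centromeric H3 fell (median log2 fold change −0.96, beside 40.8% of all genes called lower). cdl-1, which encodes the protein that binds the stem-loop of histone messages, averaged 204 ± 3.74 CPM in nol-56 RNAi and 340 ± 8.79 CPM in EV control (log2 fold change −0.73). The Argonaute gene csr-1, whose loss impairs histone message processing in C. elegans, averaged 199.7 ± 3.92 CPM in nol-56 RNAi and 477 ± 3.89 CPM in EV control (log2 fold change −1.25). ego-1 (−1.40) and drh-3 (−1.43), which act with it in a small RNA pathway, and the exonuclease gene eri-1 (−0.96) fell too. The centromeric H3 gene hcp-3 averaged 75.8 ± 3.92 CPM in nol-56 RNAi and 124 ± 4.39 CPM in EV control (log2 fold change −0.71), and its relative cpar-1 fell by 0.23 on the log2 scale.

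Of 17 histone chaperone and assembly genes, 16 fell and 1 did not pass the threshold (median log2 fold change −0.79), beside 40.8% of all genes called lower and a median of 0.16. The smallest p-values were those of the FACT subunit genes hmg-3 (−1.66) and hmg-4 (−1.14), nasp-2 (−1.21) and lin-53 (−1.03), which encodes a histone-binding protein. The exception, asfl-1, an ASF1-like chaperone gene named after its value was seen, averaged 52.6 ± 1.19 CPM in nol-56 RNAi and 52.5 ± 1.38 CPM in EV control (adjusted p = 0.983, edgeR). All 27 DNA replication genes fell (median log2 fold change −0.92), beside the same background. These falls stand beside those of the germline and oocyte markers (median −1.08).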

How the data were processed

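PolyA-selected RNA of 6 pools of whole worms was sequenced on an Illumina NovaSeq after a strand-marking kit, per the labels' protocols. The authors deposited whole-number read counts per gene and library, and normalized values, a signal in which each library's counts are divided by its size factor (0.832 to 1.23), used here only to check those factors. Per the submitters' processing notes, the build was WBcel235 and the tools included TopHat2 2.1.1, HTSeq 2.01, cutadapt 2.10 and DESeq2 1.36.0, with no role or order given. All 6 libraries, 3 per group by their titles, were fitted with edgeR 4.0.16 (R 4.3.3): filterByExpr defaults (counts of about 10 in at least 3 libraries), TMM factors, quasi-likelihood test, Benjamini-Hochberg adjustment over all genes, threshold 0.05. P-values measure the spread between these pools, which may be technical. CPM values use TMM-scaled totals; SE is the fold change over the root of F. Positions and exons came from Ensembl WBcel235, matched by identifier for all 82 genes. Histone types came from the deposited gene descriptions. Read ratios used exact permutation tests over libraries, on log2 ratios with 0.5 added to each count.

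Histone genes and lists were chosen with earlier results of these data known. The rule for named genes was every histone gene tested, the most counted of the rest, nol-56, and up to 4 genes of each list by p, with cdl-1, csr-1, hcp-3 and cpar-1. Other genes are said to have been named after their values were seen. Genes left after filtering held 99.9% or more of each library's counts. Tests were checked on simulated data in which few genes changed, evenly up and down. That check does not cover scaling where most genes are called, as here. No pair of libraries in a group matched within counting noise (chi-square over degrees of freedom, 2.09 or more). Alternatives were RLE and upper-quartile factors, library totals, no filter, a filter at 5 CPM, a replicate block, DESeq2 1.42.0, limma-voom 3.58.1 and each library left out. The planned searches for stem-loop motifs and for sequence shared between gene copies were not run, and no sequence was used here.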

Additional observations from a re-analysis of the deposited data

How the results depend on the processing

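Over 14 alternatives, 28 of the 34 histone genes tested kept their direction and their side of the threshold wherever they were tested, and 442 of 461 values did. The exceptions were his-20, his-40, his-48, his-62, his-68 and his-71. his-62 changed sign with upper-quartile factors (log2 fold change 0.188), library totals (0.0349), genes above 5 CPM alone (0.0895) and without EV control replicate 1 (0.141, in a range of −0.225 to 0.141 with each library left out), and his-48 with upper-quartile factors (0.00903). Neither gene passed the threshold there, and the cause was not tested. With genes above 5 CPM alone 19 histone genes were tested and 12 were called lower, against 23 of 34. Over all genes 4566 of 9931 were lower there, against 5990 of 14677. Among the 28 genes above the filter's level in all 6 libraries, a choice made after seeing the data, 18 were lower (beside 42.7% of all such genes) and 6 higher (beside 46.4%). With a replicate block 23 were lower and 7 higher, as without it, beside 5964 lower and 6893 higher of all 14677 genes tested. Same-numbered libraries deviated from their group means with correlations of −0.0351 to 0.000394, so no deviation shared by number was seen. This cannot show whether they were prepared as pairs. Scaling moved the summed levels but turned no direction. The log2 ratio of summed CPM was −1.07 for all histone genes (−1.21 with RLE factors, −0.83 with upper-quartile factors, −0.98 with library totals), −1.80 for linker H1 (−1.94, −1.55 and −1.71), −0.88 for H2A.Z (−1.02, −0.63 and −0.79) and −0.54 for H3.3 (−0.68, −0.30 and −0.45). It was 0.37 for core genes with introns (0.24, 0.62 and 0.47) and −0.79 for core genes without introns (−0.93 and −0.54 with RLE and upper-quartile factors). Leaving out each library gave −1.09 to −1.05 for all histone genes, 23 to 25 genes called lower and 6 to 7 called higher. The number of histone genes that pass the filter changes in such fits. It was 36 without nol-56 RNAi replicate 1 and 37 without nol-56 RNAi replicate 2, against 34 with all libraries. Of the 14932 to 15042 genes tested in those fits, 5933 to 6056 were lower and 6742 to 6937 higher. Most intronless genes had too few reads for a test in these libraries, and the cause was not tested.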
